A study of Homo sapiens with 20 samples.

Results

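CTCF-free cohesin sites away from promoters were examined in M14 cells, an established human melanoma cell line. A site was taken when a SMC1A ChIP-seq peak of the first WT library (chromosomes 1 to 22 and X) overlapped a peak in the other WT SMC1A list and in both WT lists of STAG1 and of STAG2, overlapped no peak in any of the 4 CTCF lists, and had its midpoint more than 1 kb from every annotated transcript start. This rule kept 2294 of 82239 peaks (2.79%). It also made the sites 6.23% of the 36849 distal sites at which all 6 WT cohesin lists had a peak. For comparison, 33382 distal shared sites had a CTCF peak in all 4 lists (CTCF-bound distal sites), 1173 had one in 1 to 3 lists, and 566 CTCF-free shared sites lay within 1 kb of a start (CTCF-free promoter sites). The WT peaks and the CTCF peaks chose the sites, so WT levels are given as a description. STAG2-KD cohesin peaks were not used to choose them.

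Cohesin is a ring-shaped complex that holds DNA and extrudes loops. SMC1A is a core subunit of the ring, and in somatic cells each ring carries either STAG1 or STAG2. CTCF is a DNA-binding protein with a long motif that halts loop extrusion, so most strong cohesin peaks coincide with CTCF. Cohesin peaks without CTCF are known from enhancers, where tissue-specific transcription factors bind, and STAG2 is known to be the more frequent STAG protein there.

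Libraries were grouped by antibody and condition. All cells carried a doxycycline-inducible shRNA against STAG2. WT denotes this line without induction and STAG2-KD the line with it, so the groups share the construct and come from 1 cell line. Doxycycline was given for 5 days in set 1, and its duration is not stated in the labels of set 2. Each antibody had 1 WT and 1 STAG2-KD peak list in each of 2 sets, which differ in size selection of the library (beads in set 1, gel in set 2) and in the threshold of the deposited lists. Nothing in the labels says that the sets came from independent cultures.

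The sequences of 5 sites near genes of the lists described further on are given as examples, and most of them carry a word marked below. Each runs 5′ to 3′ on the plus strand of hg19, from 100 bases before to 100 bases after the set 1 WT SMC1A summit. Capitals mark matches on either strand to the words searched for AP-1 (TGACTCA), RUNX (TGTGGTT), SOX (AACAAAG and AACAATG), TEAD (CATTCCA) and MITF (M-box, TCATGTG), or to the CTCF core. The TEAD1 site carries an AP-1 and a RUNX word, the IFNGR2 site an AP-1 word, the SPRED1 site a pair of RUNX words close together and the ETV1 site a TEAD word. The MITF site is shown as one of the many sites without any of these words. Over all CTCF-free distal sites, 49.8% held at least 1 of the AP-1, RUNX, SOX, TEAD, M-box and TFAP2 words. The TEAD1 sequence is from a different site than the TEAD1 sites whose enrichments are given further on.
TEAD1 intron, chr11:12839334-12839534: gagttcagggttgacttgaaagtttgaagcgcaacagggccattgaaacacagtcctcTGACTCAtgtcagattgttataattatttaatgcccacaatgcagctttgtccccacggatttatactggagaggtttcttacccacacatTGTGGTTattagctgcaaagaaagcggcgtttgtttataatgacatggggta
IFNGR2, intergenic, chr21:34752884-34753084: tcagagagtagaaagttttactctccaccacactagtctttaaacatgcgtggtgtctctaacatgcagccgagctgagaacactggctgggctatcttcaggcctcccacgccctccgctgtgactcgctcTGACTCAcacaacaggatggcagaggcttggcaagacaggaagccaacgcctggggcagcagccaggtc
SPRED1, in a LINC02895 intron, chr15:38509469-38509669: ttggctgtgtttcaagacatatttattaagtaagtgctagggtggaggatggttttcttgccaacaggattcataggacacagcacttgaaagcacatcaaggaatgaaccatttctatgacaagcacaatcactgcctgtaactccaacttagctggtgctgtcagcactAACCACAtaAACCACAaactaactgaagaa
ETV1 intron, chr7:13959936-13960136: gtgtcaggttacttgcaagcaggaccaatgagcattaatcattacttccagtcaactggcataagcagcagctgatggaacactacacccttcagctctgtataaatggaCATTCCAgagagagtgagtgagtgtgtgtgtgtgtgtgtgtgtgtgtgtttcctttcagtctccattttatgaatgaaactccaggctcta
MITF intron, chr3:69910695-69910895: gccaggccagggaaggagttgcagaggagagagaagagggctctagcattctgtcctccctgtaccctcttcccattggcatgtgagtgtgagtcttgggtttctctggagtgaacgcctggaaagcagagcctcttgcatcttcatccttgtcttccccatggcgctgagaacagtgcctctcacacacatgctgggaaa

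Read depth is not recorded in peak lists, but the lowest expected background was estimated from their fold enrichment and p-value columns. The estimate matched 13 to 23 of the 40 commonest pairs of these values in a list. It was 1.02 to 1.72 stacked fragments in the WT cohesin lists of set 1 and 2.67 to 3.496 in those of set 2, so set 2 was the deeper. The STAG2-KD value divided by the WT value was 0.987 to 1.10 within a set for the cohesin antibodies. At this background, the median STAG2 enrichment at the CTCF-free distal sites stands for 17.4 fragments over the summit in set 1 and 29.7 in set 2, and the median STAG1 enrichment for 11.6 and 18.4. These numbers are larger where the local background is higher than the lowest. At the lowest background, peaks at these sites were called on few fragments. A missing peak means that none passed the authors' threshold, not that the protein was absent. Over whole lists, STAG2 peaks numbered 81909 in WT and 60867 in STAG2-KD in set 1, and 119231 and 106445 in set 2. STAG2 RNA or protein was not analysed here.

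CTCF-free distal sites were weak cohesin sites in WT cells, and their enrichments leaned to STAG2. The median fold enrichment of STAG2 was 6.78 in set 1 (quartiles 5.26 and 8.64) and 6.82 in set 2 (5.25 and 8.89). That of STAG1 was 4.63 (3.97 and 5.57) and 4.32 (3.51 and 5.44), and that of SMC1A 5.44 (4.56 and 6.50) and 5.36 (4.36 and 6.54). At CTCF-bound distal sites, STAG2 stood at 20.8 and 15.7, STAG1 at 21.1 and 15.8 and SMC1A at 13.99 and 12.01. The 2 STAG proteins thus had level enrichments where CTCF was bound. The median log2 ratio of STAG2 to STAG1 enrichment there was 0.03 in set 1 and 0.02 in set 2. At CTCF-free distal sites the ratio was 0.53 and 0.62. The 2 antibodies may differ in efficiency, so level enrichments do not show equal amounts of protein. The ratios are read only between site classes.

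**Figure D1:**
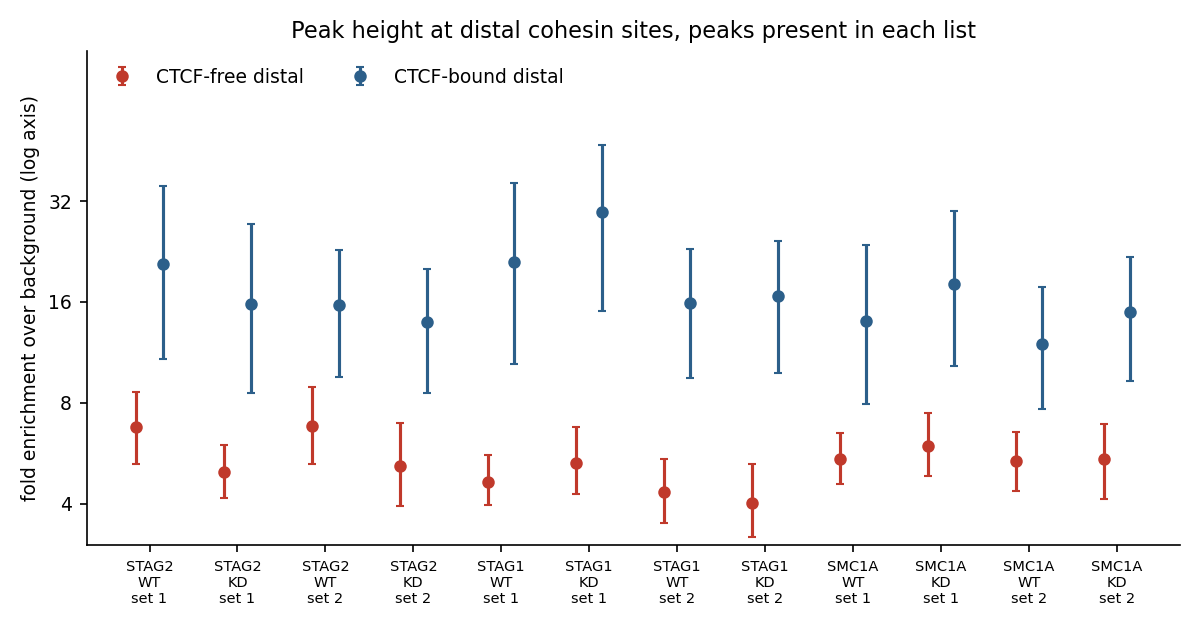
Fold enrichment over background (log axis) in each of the 12 cohesin lists at CTCF-free distal (red) and CTCF-bound distal sites (blue). Points are medians over sites with a peak in that list, and bars span the quartiles. The red STAG2 medians are 6.78 and 6.82 in WT and 4.96 and 5.19 in STAG2-KD, while the blue SMC1A medians are 13.99 and 12.01 in WT and 18.04 and 14.9 in STAG2-KD.

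The lean was also measured as a percentile, the position of a peak among all peaks of its own list, where 100 is the strongest. The median difference of STAG2 minus STAG1 was 22.2 percentile points in set 1 and 17.95 in set 2 (mean 20.1 ± 3.02, SD, n = 2 sets). STAG2 had the higher percentile at 2017 of the 2294 sites (87.9%) in set 1 and at 2088 (91.0%) in set 2. It was also the higher at 71.6% and 66.1% of CTCF-bound distal sites and at 74.9% and 70.3% of all shared sites. CTCF-bound distal sites had median differences of 4.49 and 2.29 points, and CTCF-free promoter sites stood between, at 13.6 and 11.6. Sites with CTCF in 1 to 3 lists were close to the CTCF-free ones, at 19.2 and 14.4. The WT values that chose the sites also make up these differences and the strength bins that follow, and the STAG1 and STAG2 lists differ in length. With lists of equal length the lean was 12.9 points in set 1 and 17.04 in set 2. Among sites with a mean WT percentile of 40 to 50, the difference was 24.5 points at 852 CTCF-free and 9.05 points at 1997 CTCF-bound sites in set 1, and 18.9 against 3.99 points in set 2. The CTCF-free value was the higher in each of the 5 bins of 10 points from 20 to 70.

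After STAG2 knockdown, the CTCF-free distal sites lacked a peak of each cohesin subunit at a larger share than all shared sites did. A STAG2 peak was missing in STAG2-KD at 1087 of 2294 sites (47.4%) in set 1 and at 83 (3.62%) in set 2, against 11.3% and 0.891% of all 48019 shared sites. STAG1, which the knockdown does not target, had no peak at 24.5% and 5.88% of the CTCF-free distal sites, against 3.07% and 0.66% of all shared sites. SMC1A had none at 18.2% and 2.57%, against 4.62% and 0.631%. At CTCF-bound distal sites, the shares were 7.95% and 0.776% for STAG2, 0.905% and 0.231% for STAG1 and 3.82% and 0.53% for SMC1A. Distal sites with CTCF in 1 to 3 lists lacked STAG2 at 43.4% and 1.96%, STAG1 at 17.0% and 2.56% and SMC1A at 17.8% and 3.58%, the last of these above the share at CTCF-free distal sites. CTCF-free promoter sites lay between the CTCF-free and the CTCF-bound distal sites, except that their SMC1A share in set 2, 0.53%, was that of the CTCF-bound sites.

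**Figure D2:**
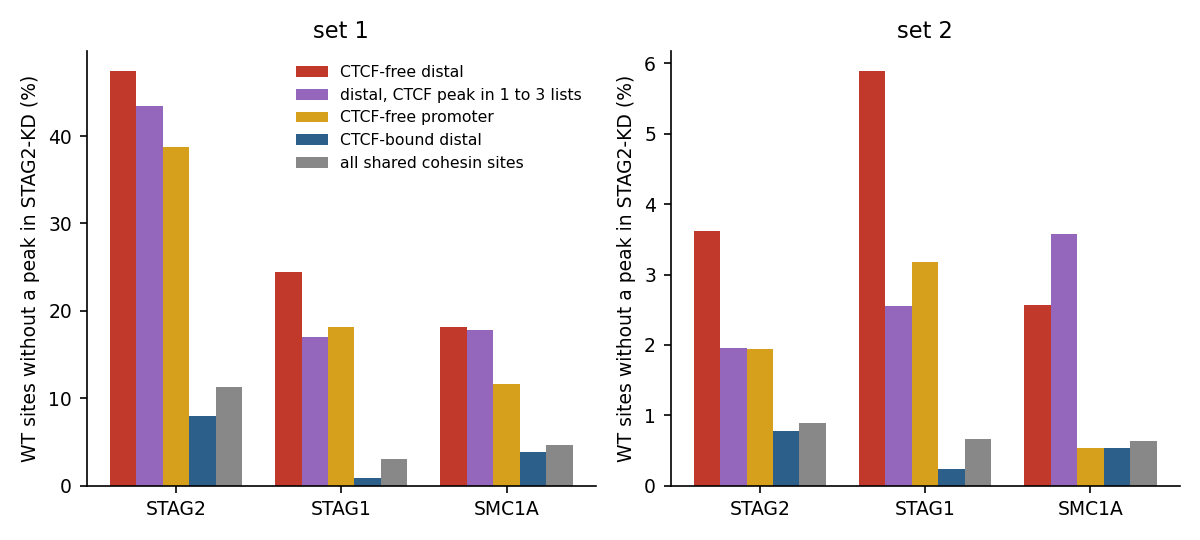
Share of sites with a WT peak that had no overlapping peak in STAG2-KD, for each antibody, in set 1 (left) and set 2 (right, with another scale). Bars are site classes, and grey bars all 48019 shared cohesin sites. The red bars, CTCF-free distal sites, reach 47.4% for STAG2 in set 1 and are the tallest except for SMC1A in set 2, where they stand at 2.57% and the purple bar, sites with CTCF in 1 to 3 lists, at 3.58%.

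WT strength moved with the missing peaks, since the mean WT percentile over the 6 lists had a median of 44.3 at CTCF-free and of 77.7 at CTCF-bound distal sites. The classes were therefore set side by side in bins of 10 points of this mean, a comparison chosen after seeing the data. Given the strength of the CTCF-free sites, CTCF-bound sites lacked a STAG2 peak at 44.3% in set 1 and 6.80% in set 2, where the CTCF-free sites did at 46.9% and 3.40%. For SMC1A the shares were 18.8% and 3.62% at CTCF-bound and 17.7% and 2.52% at CTCF-free sites. For STAG1 they differed in both sets, with 6.71% and 2.12% at CTCF-bound and 24.1% and 5.65% at CTCF-free sites. When each antibody's own WT percentile made the bins, the STAG1 shares were 7.23% and 2.92% at CTCF-bound against 24.5% and 5.88% at CTCF-free sites, the STAG2 shares 32.2% and 3.16% against 47.4% and 3.62%, and the SMC1A shares 15.7% and 2.80% against 18.2% and 2.57%. The larger share at CTCF-free sites thus held in both sets and under both bin rules for STAG1 but not for STAG2 or SMC1A.

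**Figure D3:**
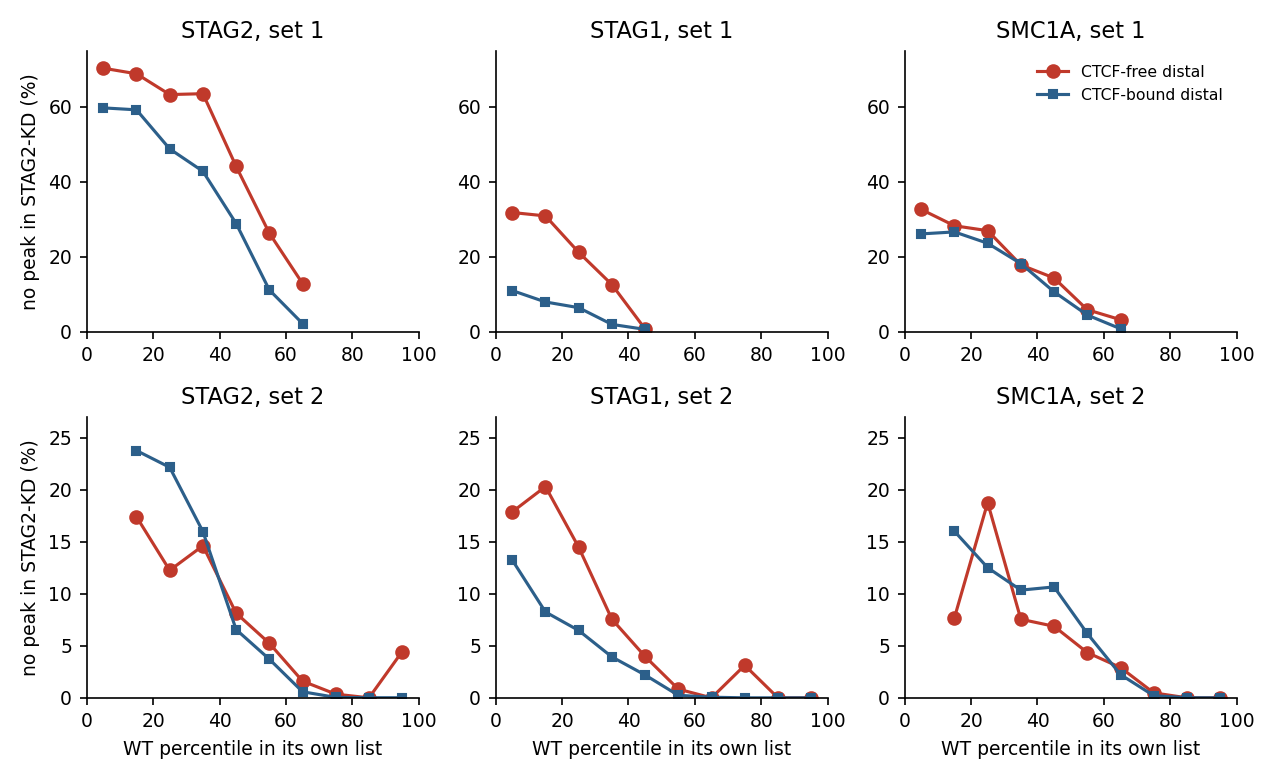
Share of sites without a STAG2-KD peak (vertical axis) against the WT percentile of the same antibody in the same set (horizontal axis, bins of 10 points with at least 20 sites of each class). Red circles are CTCF-free and blue squares CTCF-bound distal sites. In the lowest STAG1 bin of set 1, 31.8% of CTCF-free and 11.0% of CTCF-bound sites had no STAG1 peak, whereas in the lowest SMC1A bin of set 1 the shares were 32.7% and 26.1%.

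Percentiles count a missing peak as 0 and so hold the missing peaks within them, and the lists they rank differ in length. The rule asked for a WT peak at every site and not for a STAG2-KD peak, so it favours lower STAG2-KD values. The differences and tests that follow share this limit and are given as a description. The median STAG2 percentile of the CTCF-free distal sites was 43.0 in WT and 1.82 in STAG2-KD in set 1, and 64.3 and 52.1 in set 2. It was lower in STAG2-KD in both sets, by a mean of 26.6 points (SD 20.5, n = 2 sets). The test exchanged lists across sets, and the WT value of set 1 lay below the STAG2-KD value of set 2 (two-sided exact permutation test, p = 0.667). This overlap is between sets called at different thresholds and not within a set. With lists paired by set, the exact sign-flip p for STAG2 was 0.5, the smallest it can give. The mean difference was −13.5 points with lists of equal length and −19.6 points over sites with a peak in both lists of a set. For STAG1 the medians were 17.5 and 22.5 in set 1 and 45.6 and 43.8 in set 2 (exact permutation p = 1). For SMC1A they were 37.2 and 36.5, and 68.8 and 64.9 (exact permutation p = 0.667). With 2 lists against 2, the smallest p this test can give is 0.333, so no difference could pass 0.05. With each list limited to its strongest 58521 peaks, the length of the shortest, the rule kept 1355 sites. At these, STAG2 peaks were missing at 21.3% and 7.75% and STAG1 peaks at 36.9% and 20.7%, so the order of the 2 STAG proteins in set 1 depended on list length.

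At sites that kept a STAG2 peak the other subunits were mostly kept too. In set 1, STAG1 had a peak at 625 of the 1087 sites without STAG2 (57.5%) and at 1107 of the 1207 sites with it (91.7%), and SMC1A at 764 (70.3%) and 1113 (92.2%). Over all shared sites the STAG1 shares were 79.4% without and 99.2% with STAG2, and the SMC1A shares 78.4% and 97.6%. In set 2, STAG1 had a peak at 56 of 83 (67.5%) and 2103 of 2211 sites (95.1%), against 80.4% and 99.5% over all shared sites. All 6 STAG2-KD cohesin lists had a peak at 1029 of the 2294 sites (44.9%), against 85.8% of all shared sites, and none did at 11, or 0.48% against 0.0479%. CTCF-bound distal sites had a peak in all 6 at 89.7%. STAG2 was missing from both STAG2-KD lists at 83 sites (3.62%), against 0.86% of all shared sites. Sites without STAG2 and with STAG1 in both STAG2-KD lists numbered 22 (0.959%), against 0.525% of all shared sites. This count cannot pass the 83 sites without STAG2 in set 2, whose lists reach weaker peaks, and in set 1 alone the pattern was at 625 sites (27.2%, against 8.97% of all shared sites).

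Single sites show these patterns with their fold enrichments. A site near a melanocyte gene whose overlapping WT cohesin peaks reached no CTCF peak lay in an intron of MITF, the transcription factor that directs melanocyte identity, at chr3:69910541-69911122. Its STAG2 enrichment was 9.54 in set 1 and 10.1 in set 2 in WT, and 3.47 and 5.62 in STAG2-KD. Its STAG1 enrichment was 5.78 and 5.29 in WT and 3.90 and 3.08 in STAG2-KD, and its SMC1A enrichment 8.57 and 7.28, and 5.42 and 4.67. All 3 proteins were lower in STAG2-KD in both sets at this site. An intergenic site 49.6 kb from the start of EDNRB, the endothelin receptor of the melanocyte lineage (chr13:78427986-78428284), had STAG2 enrichments of 13.2 and 8.37 in WT and 4.40 and 7.68 in STAG2-KD. Its STAG1 and SMC1A peaks were missing in STAG2-KD of set 1 and stood at 3.76 and 3.98 in set 2.

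At other sites STAG1 or SMC1A was level or higher in STAG2-KD in at least 1 set. Enrichments were also higher in general. Over all shared sites with a peak, median STAG1 was 16.2 in WT and 24.2 in STAG2-KD in set 1, and 13.6 and 14.3 in set 2. Median SMC1A was 11.9 and 15.5, and 10.9 and 13.4. A level value at a site thus fell behind these medians. In an intron of TEAD1, a transcription factor of the Hippo pathway (chr11:12701718-12702523), STAG2 was at 9.59 and 9.63 in WT and at 4.42 and 6.32 in STAG2-KD. STAG1 there was at 6.47 and 6.06 in WT and 9.65 and 6.24 in STAG2-KD, and SMC1A at 10.9 and 7.72, and 8.04 and 9.57. In an intron of ETV1, an ETS-family transcription factor (chr7:13959486-13960292), STAG2 was at 15.95 and 14.7 in WT and at 6.72 and 7.48 in STAG2-KD, while SMC1A was at 5.62 and 6.85, and 9.09 and 7.49. STAG1 at this site was at 6.58 and 8.46, and 6.87 and 6.33. The SPRED1 site, in an intron of the long non-coding RNA LINC02895 and 35.4 kb from the start of SPRED1, an inhibitor of RAS-ERK signalling (chr15:38509375-38509866), had STAG2 at 11.6 and 10.2 in WT and at 4.30 and 5.64 in STAG2-KD. Its STAG1 was at 4.83 and 4.79, and 4.83 and 3.38, and its SMC1A at 9.27 and 6.73, and 5.74 and 7.93. STAG2 was lower in STAG2-KD in both sets at the 5 sites described so far. It was not at every listed site: at another TEAD1 site (chr11:12698663-12699148) STAG2 was at 8.35 and 16.9 in WT and at 4.96 and 19.3 in STAG2-KD, and at a site near ISG20 (chr15:89202719-89203192), an interferon-induced exonuclease, it was at 4.27 and 4.89 in WT, missing in STAG2-KD of set 1 and at 6.45 in set 2.

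The 12 strongest sites by the sum of WT ranks were all shoulders of CTCF sites: at least 1 of the wider WT cohesin peaks that they overlapped reached a CTCF peak. They include a pair in an intron of PHLPP1, a pair 496 kb from MAP3K7 and sites in PDE4B, JARID2, HDAC4 and TBC1D8, one 44.2 kb from KCTD3, and others 397 kb from ANXA1 and 421 kb from SEMA5A. At the PDE4B site (chr1:66719814-66720417), which lies 47 bp from a CTCF peak, STAG1 was at 43.1 and 15.8 in WT and 52.4 and 25.2 in STAG2-KD. Of all 2294 sites, 448 (19.5%) overlapped such a peak and 1846 (80.5%) did not. Among the 22 sites without STAG2 and with STAG1 in both STAG2-KD lists, one lay 95.1 kb from LHX2 (chr9:126872609-126872934), where STAG2 was at 7.05 and 6.26 in WT and STAG1 at 5.84 and 4.71 in WT and at 5.71 and 4.36 in STAG2-KD. Another was in an intron of PPM1H, and one 1.93 kb from STK10 and one 547 kb from IRS1 were shoulders. SMC1A was missing from both STAG2-KD lists at 59 sites (2.57%, against 0.587% of all shared sites). The strongest of them in WT were in NRCAM and HPSE2 and at 206 kb from ALDH8A1, 47.7 kb from TLE1 and 80.05 kb from ANKRD50. At the HPSE2 site (chr10:100419897-100420033), SMC1A was at 6.27 and 5.18 in WT, while STAG2 was at 9.91 and 9.28 in WT and 4.11 and 3.93 in STAG2-KD. Among these named sites, only HPSE2 kept STAG2 and STAG1 peaks in both STAG2-KD lists. The NRCAM, ALDH8A1, TLE1 and ANKRD50 sites had neither in set 1, and the NRCAM and TLE1 sites had no STAG1 peak in set 2 either. Restricted to the 1846 sites that were no shoulders, the shares without a STAG2-KD peak were 46.8% and 3.68% for STAG2, 25.4% and 6.50% for STAG1 and 19.3% and 2.82% for SMC1A. Among these 1846, chosen after seeing the values, the strongest included an intergenic site 9.84 kb from ZNF608 (STAG2 at 11.9 and 12.2 in WT and 9.31 and 12.05 in STAG2-KD) and one 144 kb from CCND1, the cyclin D1 gene (15.6 and 14.3, and 7.20 and 8.55). Sites in introns of BNC2 and SOX6 were also among these 12.

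The DNA at the CTCF-free distal sites held transcription factor words and rarely a CTCF core. The AP-1 word, bound by FOS and JUN dimers, lay within 100 bp of the summit at 341 of 2294 sites (14.9%, 95% Wilson interval 13.5 to 16.4). It lay in 2.77% (2.33 to 3.28) of windows of the same length 5 kb to each side, in 3.54% of CTCF-bound distal sites and in 7.07% of CTCF-free promoter sites. Sites with CTCF in only 1 to 3 lists had it at 12.8%. The CTCF core matched at 7 sites (0.305%), against 0.327% of the flanking windows and 31.2% of the CTCF-bound sites. CTCF peaks defined these classes, so the contrast with CTCF-bound sites is built into the rule. These intervals cover counting error only.

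The RUNX word was the next most frequent, at 11.9% of sites against 4.08% of flanking windows and 4.51% of CTCF-bound sites. The 2 SOX words, bound by factors such as SOX10 of the melanocyte lineage, were at 9.81% and 6.28% against 5.73% and 4.18% of flanks. The TEAD word was at 6.63% against 4.12%, and the M-box, bound by MITF, at 5.49% against 3.27%. The TFAP2 word GCCNNNGGC was at 8.85% against 3.27%, but 17.0% of CTCF-free promoter sites held it. Words typical of promoters were rarer at the distal sites than at promoter sites. ETS (CCGGAAG) was at 0.872% against 6.01% of promoter sites, SP (GGGCGGG) at 1.96% against 18.02% and CRE (TGACGTCA) at 0.0872% against 1.94%. In flanks these words were at 0.436%, 0.937% and 0.0872%. As ratios to flanks, ETS (2.0) and SP (2.09) stood above the SOX (1.71 and 1.5), M-box (1.68) and TEAD (1.61) words. The FOX word (TGTTTAC) was at 3.57% against 2.79% of flanks, and the E-box TCACGTG at 1.09% against 0.85%. No word contains another, and each was searched on both strands. Median GC content was 43.8% at the sites, 40.8% in flanks, 46.3% at CTCF-bound and 53.7% at promoter sites, and its part in these shares was not tested.

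**Figure D4:**
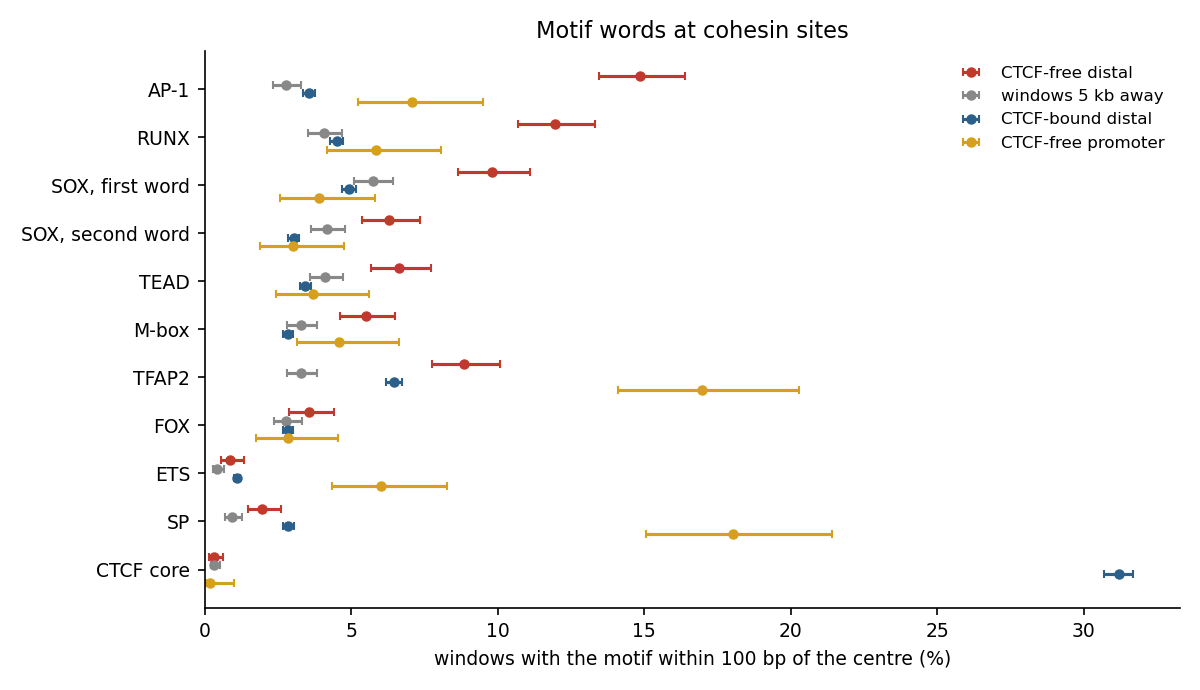
Share of windows with each motif word within 100 bp of the summit or window centre (horizontal axis), with 95% Wilson intervals. Red marks CTCF-free distal sites, grey the windows 5 kb away, blue CTCF-bound distal and yellow CTCF-free promoter sites. AP-1 stands at 14.9% in red against 2.77% in grey, and the CTCF core at 31.2% in blue only.

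A comparison of all 8185 words of 7 letters between the sites and the flanking windows, made after seeing the data, put the same words first. TGACTCA had the largest excess (14.9% against 2.77%) and AACCACA, the RUNX word on the other strand, the next (11.9% against 4.08%). Of the 6 words that followed, 5 overlapped one of these by a shift of 1 letter and the other, CAGGAAA, was at 11.0% against 6.19%. AP-1 words gathered at the summit: 4.58% and 4.49% of sites held one in the 50 bp to either side of it and 0.959% and 0.654% in the 50 bp that end 1 kb away on either side. The spread was wide, with a median of 42 bp from the nearest AP-1 word to the summit, where the CTCF core lay a median of 15 bp from the summit at CTCF-bound sites. At least 1 of the AP-1, RUNX, SOX, TEAD, M-box and TFAP2 words was found at 1142 sites (49.8%), in 24.5% of flanking windows and at 25.6% of CTCF-bound sites. AP-1 and RUNX words shared 37 sites, and a RUNX word was at 10.9% of sites with AP-1 and at 12.1% of those without.

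Sites with an AP-1 word kept their cohesin peaks more often in STAG2-KD. In set 1, a STAG2 peak was missing at 112 of 341 sites with the word (32.8%) and at 975 of 1953 without it (49.9%). STAG1 was missing at 12.9% against 26.5%, and SMC1A at 9.68% against 19.7%. In set 2 the shares were 1.76% against 3.94% for STAG2, 3.81% against 6.25% for STAG1 and 1.47% against 2.76% for SMC1A. With the word, these set 2 shares stand for only 6, 13 and 5 sites. WT STAG2 percentiles of the groups were close, with medians of 43.4 with and 42.8 without the word in set 1 and of 64.3 in both in set 2, whereas WT STAG1 medians were 16.8 and 17.5 in set 1 and 50.3 and 44.8 in set 2. The order was the same among the strongest, middle and weakest sites, in classes of nearly equal size by WT strength. Sites are not replicates and this comparison was chosen after seeing the data, so it was not tested and is given as a description of the 2 sets.

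**Figure D5:**
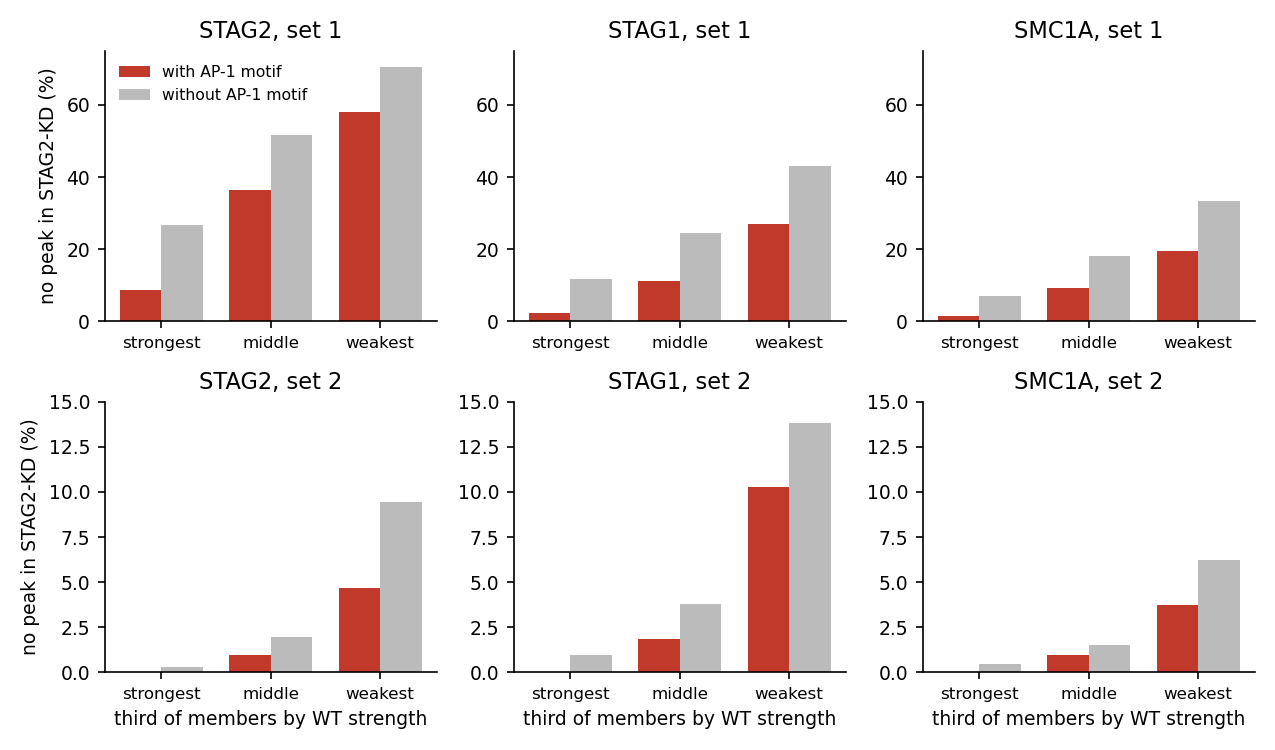
Share of CTCF-free distal sites without a STAG2-KD peak, with (red) and without (grey) an AP-1 word within 100 bp of the summit, in 3 classes of WT strength (columns are antibodies, rows are sets with their own scales). The red bar is the lower in all 18 pairs, for example 8.66% against 26.8% for STAG2 in the strongest class of set 1. The red bars of set 2 rest on few sites: over the 3 classes, 6 lacked STAG2, 13 STAG1 and 5 SMC1A.

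For STAG2 in set 1, differences were smaller for the other words. There a STAG2 peak was missing at 43.8% of sites with and 47.9% without a RUNX word, at 48.3% and 47.2% with and without a SOX word and at 49.3% and 47.2% for TEAD. With and without an M-box, STAG2 was missing at 42.9% and 47.6%, and SMC1A at 24.6% and 17.8% in set 1 and 3.97% and 2.49% in set 2, the other way round from AP-1. For TFAP2 the STAG2 shares were 47.8% and 47.3%. At CTCF-bound sites, where AP-1 words were rare, STAG2 was missing at 7.69% with and 7.96% without one in set 1, and at 0.507% and 0.786% in set 2. There SMC1A was missing at 2.70% and 3.86%, and 0.338% and 0.537%, and STAG1 at 0.845% and 0.907%, and 0.423% and 0.224%. WT strength was not matched, with median WT STAG2 percentiles of 70.1 with and 74.5 without the word in set 1. At the distal sites with CTCF in 1 to 3 lists, STAG2 was missing at 25.3% of 150 sites with and 46.0% of 1023 without an AP-1 word in set 1, and at 0.667% and 2.15% in set 2. The AP-1 share itself was 12.9% within 1 kb of a CTCF peak and 17.4% beyond 10 kb, and 16.6% in the strongest and 13.99% in the weakest class of sites.

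The sites lay mostly inside genes and far from starts. In the annotation, 1517 (66.1%) were in introns, 82 (3.57%) in exons and 695 (30.3%) between genes, where CTCF-bound distal sites were 55.0% intronic, 6.55% exonic and 38.5% intergenic. The median distance to the nearest protein-coding start was 49.6 kb, against 22.3 kb for CTCF-bound distal sites, and 33.5% lay over 100 kb away. The nearest CTCF peak was a median of 3659 bp away, within 1 kb at 582 sites (25.4%) and over 10 kb away at 598 (26.1%). STAG1 peaks were missing in STAG2-KD at 21.99% of the sites within 1 kb of CTCF and at 30.4% of those over 10 kb away in set 1, and at 4.64% and 6.86% in set 2. SMC1A was missing at 14.6% and 25.1%, and at 1.55% and 2.84%. For STAG2 the shares were 49.0% and 43.6%, and 3.09% and 2.51%. The 2 groups also differed in WT strength. Within 1 kb and over 10 kb away, median WT percentiles of SMC1A were 38.9 and 34.0 in set 1, and 72.0 and 66.4 in set 2. Those of STAG1 were 18.4 and 17.8, and 49.2 and 44.2, and those of STAG2 41.3 and 44.7, and 66.6 and 64.9. The part of WT strength and of shoulders of CTCF sites in these shares was not tested. The sites were 8.39% of the distal shared sites on chromosome 12 and 8.38% on chromosome 2, but 1.43% on chromosome 19 and 2.07% on X.

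When sites within 10 kb of each other were joined, 659 of the 2294 (28.7%) fell into 292 groups, against 31.3% of CTCF-bound distal sites. The largest groups had 5 sites. One spanned 12.3 kb outside coding genes (chr2:145783803-145796076). Its nearest coding gene was ZEB2, a transcription factor of the melanocyte lineage, but a link to that gene was not tested. The other spanned 10.8 kb at PHLDA1, a gene induced by ERK signalling (chr12:76411956-76422726). In STAG2-KD of set 1, STAG2 was missing at 2 and STAG1 at 2 of the 5 sites of the chromosome 2 group, and at 1 and 0 of the 5 PHLDA1 sites. Groups of 4 included those in PDE4B, PTPRG, ST3GAL6 and ZNF608, and others with MYO10, KLF6, FAM76B, BMP7 or PHLDA1 as the nearest coding gene. STAG2 was missing at all 4 sites of the PTPRG and KLF6 groups in set 1 and at none in set 2. At the ST3GAL6 group STAG2 was missing at 1 site in set 1, and no STAG1 or SMC1A peak was missing in either set.

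Genes of the lists were reached by these sites to different extents. Over all 20090 protein-coding genes, 6.61% had a site inside or within 50 kb. Of 22 melanocyte lineage genes 8 did (36.4%), led by MITF with 9 sites and including PAX3, KIT, DCT, EDNRB, TFAP2A, TPCN2 and BCL2A1. Of 18 ERK feedback and target genes 6 did (33.3%): PHLDA1 with 7 sites, ETV1 with 4, DUSP6 with 2, and SPRY2, SPRY4 and SPRED1 with 1 each. Of 24 genes of the dedifferentiated melanoma state 4 did (16.7%), namely TEAD1, TNC, CD44 and JUN, and of 20 interferon pathway genes 3 did, namely ISG20 and the receptor genes IFNAR1 and IFNGR2, which shared 1 site. No gene of 15 for cohesin and its regulators had one. CTCF-bound distal sites reached 86.5% of all protein-coding genes and 83.3% to 95.8% of the genes in each list. Long genes have more room for a site, and the part of gene length was not tested.

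The 1 kb limit on distance to a start was crossed by small steps. The 3 sites just inside lay 1001, 1005 and 1010 bp from a start, with WT STAG2 enrichments of 4.48, 10.7 and 5.86 in set 1. The 3 just outside lay at 1000, 996 and 996 bp, with 3.70, 3.29 and 4.35.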

How the data were processed

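Peak lists of 4 antibodies were used, with 1 file per library. Input libraries have no list of their own. By the labels, set 1 was processed with Bowtie2 and MACS2, and set 2 with CASAVA 1.4, BWA, SAMtools, Picard, MACS2 and deepTools. The study's methods name bowtie2 for its ChIP-seq, so the aligner of set 2 is not certain. For each peak the authors deposited a score, a fold enrichment at the summit (a ratio of fragment pileup to expected background), and a −log10 p-value and −log10 q-value. Lists of set 1 end at a −log10 q-value of 2.00 and those of set 2 at a −log10 p-value of 2.00, which limits how missing peaks compare between sets. Lists hold 60867 to 94751 peaks in set 1 and 98620 to 150537 in set 2. The build is hg19, and no peak ended past the matching chromosome of the reference used (GENCODE release 44 lifted to GRCh37).

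Peaks overlapping by at least 1 bp were taken as shared, with the strongest kept where several overlapped. Contigs other than 1 to 22, X and Y were left out. Percentiles rank fold enrichment within a list. Missing peaks were counted within a set. For medians of the 4 lists of an antibody, an exact permutation test (two-sided) was used. WT and STAG2-KD lists of a set share a library preparation per the labels. Their deviations correlated across sites, with r of 0.302 for STAG2, 0.376 for STAG1 and 0.413 for SMC1A. Named sites were the 12 strongest by WT ranks, the 5 strongest without STAG2 but with STAG1, and without SMC1A, in both STAG2-KD lists, the 5 largest groups, the strongest 3 near each gene list and 3 on each side of the distance limit. Sites named outside these rules were chosen after seeing values. Sites, lists and motifs were chosen with earlier results of these data known. Scripts used python with numpy, pandas and scipy and were tested on simulated data. The lowest background was estimated from the fold and p-value columns.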

Additional observations from a re-analysis of the deposited data

Results flagged for a closer look

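SMC1A percentiles differed in opposite directions at the 2 classes of distal sites. Its median percentile in STAG2-KD minus WT was −0.65 points in set 1 and −3.93 in set 2 at CTCF-free distal sites, a mean of −2.29, and 2.99 and 0.33 points at CTCF-bound distal sites, a mean of 1.66. Both sets had lower values in STAG2-KD in the first class and higher values in the other, but the difference itself was not tested, and with peaks of −log10 q-value of at least 5 the mean at CTCF-free sites was 0.59. With lists of equal length it was −8.72 (−8.35 and −9.09). These percentiles count a missing peak as 0. Over CTCF-free sites with a peak in both lists of a set, the mean was −0.47 (SD 4.40), and the sets differed in sign.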

How the results depend on the processing

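Of 142 values recomputed under alternatives, 119 kept their direction and stayed within the limit used, 18 passed it and 5 changed sign. The limit was 1.5 times for counts, the 95% Wilson interval for shares of sites in a motif or group, and 1 SD between sets otherwise, while percentile changes were read by sign alone. Where the limit was 1 SD, leaving out a set could not pass it with 2 sets, and the replicate block repeats the main value. Such values counted as kept by construction, so the count of 119 overstates how stable the results were. With peaks of −log10 q-value of at least 5 the sites numbered 1035, and with lists of equal length 1355. Under equal lengths, STAG1 was missing at 28.8% of CTCF-free sites, 28.1 points more than at CTCF-bound sites, its percentile change was −11.3, that of STAG2 −13.5 and of SMC1A −8.72, the STAG2 minus STAG1 lean was 14.996 points and the AP-1 share 16.8%. The lean was 24.9 points and the SMC1A percentile change 0.59 under the stricter q-value. Within bins of mean WT percentile, the excess of missing peaks at CTCF-free over CTCF-bound sites was −0.40 points for STAG2 and −1.08 for SMC1A, means of 2 sets. Within 50 bp of the summit the AP-1 share was 8.24% and the CTCF core share 0.0872%. The share of sites in groups was 23.4% with overlap by 50%, 16.8% under the stricter q-value, 23.03% with equal lengths, 26.5% without CTCF within 1 kb, 25.3% without shoulders of CTCF sites, 13.1% when set 2 was the starting list and 22.7% when joined within 5 kb. Leaving out a set gave 56 (without set 1) to 625 sites (without set 2) without STAG2 and with STAG1, against 22 with both, and a STAG1 percentile change of −1.84 to 5.02. With the replicate block, which pairs the lists of a set, the STAG2 percentile change was −26.6 (exact sign-flip p = 0.5, the smallest it can give), and the block changed no call. The AP-1 difference in missing peaks was on the same side in all 8 settings of the site rule, from −18.2 to −12.9 points for STAG2 in set 1 and −5.08 to −0.38 in set 2. The cause of these shifts was not tested. Equal list lengths remove peaks by construction. Depth is known only as the lowest background, and a missing peak near a threshold cannot be told from a weak one.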
